A study of Mus musculus with 6 samples.

Results

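Matrix metalloproteinases (MMPs) are zinc-dependent proteases that cut collagens, elastin and other proteins of the extracellular matrix, and tissue inhibitors of metalloproteinases (TIMPs) block their active site. This account follows 10 such genes in sorted mouse cardiac macrophages: the 8 proteases Mmp2, Mmp8, Mmp9, Mmp12, Mmp13, Mmp14, Mmp19 and Mmp25, and the 2 inhibitors Timp1 and Timp2. They were taken by symbol from a fixed list, and all 10 were found among the 35865 genes of the series. The 3 Tet2 KO libraries came from cardiac macrophages of Tet2-deficient donor progenitors (Tet2-/-), and the 3 Tet2 WT libraries from macrophages of Tet2-sufficient donor progenitors (Tet2+/+). Both are on C57BL/6J, and per the series title the host mice were not conditioned. The labels give no host age, no sort gate, no design of the knockout allele, and no statement that libraries of a genotype came from separate or pooled animals. The p-values therefore speak only of how far libraries differ, and that spread may be technical. The comparison asks which transcripts differ in cardiac macrophages that lack Tet2, a DNA demethylation enzyme whose loss in blood progenitors drives clonal haematopoiesis.

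Most MMPs are secreted as inactive zymogens, while the membrane-type members stay on the cell surface and can switch on others: MMP14 cleaves the zymogen of MMP2, with TIMP2 as a bridge between them. In heart tissue, matrix-producing fibroblasts are a main source of MMP2, MMP14 and TIMP1, whereas MMP12 is the macrophage elastase and MMP8, MMP9 and MMP25 are products of neutrophils and other leukocytes. Macrophages and stromal cells both make MMP13, MMP14, TIMP1 and TIMP2. Mmp8, Mmp9, Mmp12, Mmp19 and Mmp25 are treated here as myeloid-made, Mmp13, Mmp14, Timp1 and Timp2 as made by both, and Mmp2 as stromal. These classes rest on general knowledge, but they were drawn up with earlier results of these data known.

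Each library held between 37349505 and 55771087 estimated counts. The sorted cells expressed the macrophage markers, with 16 pan-macrophage genes whose summed counts per 1e6 counts (CPM) lay between 32540 and 38194 in Tet2 KO, against 20790.3 to 28358 in Tet2 WT. The 18 fibroblast markers summed to between 2206 and 4157 CPM in Tet2 KO, against between 16922 and 31695 CPM in Tet2 WT, so the libraries also held stromal RNA, and the genotypes did not overlap in either sum. Tet2 itself averaged 80.6 ± 2.23 CPM in Tet2 KO, against 64.8 ± 9.91 CPM in Tet2 WT (SD, n = 3 each; log2 fold change 0.32 ± 0.14, edgeR adjusted p = 0.159). Which part of the gene was deleted is not given, so this does not test the knockout.

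The levels of the 10 genes per transcript length (TPM, transcripts per 1e6 transcripts) spanned more than 2 orders of magnitude. Timp2 was the highest in both genotypes, at 669 ± 101 TPM in Tet2 KO and 731 ± 69.7 TPM in Tet2 WT (SD, n = 3 each, here and below). In Tet2 KO it was followed by Mmp12 (185 ± 19.6 TPM), Mmp13 (105 ± 16.5), Mmp9 (48.0 ± 11.9), Mmp2 (45.6 ± 16.9), Mmp14 (21.9 ± 3.70), Mmp19 (6.53 ± 1.92), Timp1 (3.12 ± 1.40), Mmp25 (2.30 ± 0.460) and Mmp8 (1.19 ± 0.954). In that order the libraries of Mmp9 and Mmp2, of Timp1 and Mmp25, and of Mmp25 and Mmp8 overlapped. In Tet2 WT, Mmp2 came next to Timp2 at 330.3 ± 102 TPM, then Mmp12 (140.4 ± 40.3), Mmp14 (111 ± 35.0), Mmp13 (54.2 ± 5.22), Mmp9 (34.9 ± 14.6), Timp1 (18.5 ± 6.89), Mmp19 (6.81 ± 0.527), Mmp25 (0.747 ± 0.317) and Mmp8 (0.653 ± 0.391). There the libraries of Mmp12 and Mmp14, of Mmp13 and Mmp9, of Mmp9 and Timp1, and of Mmp25 and Mmp8 overlapped. Summed per gene, the most abundant protease was thus Mmp12 in each Tet2 KO library and Mmp2 in each Tet2 WT library. The 1 listed transcript of Mmp13 had 124, 92.7 and 98.7 TPM in Tet2 KO. No single Mmp12 transcript exceeded 83.5 TPM there, and part of the Mmp12 sum came from transcripts not annotated as protein-coding.

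**Figure D1:**
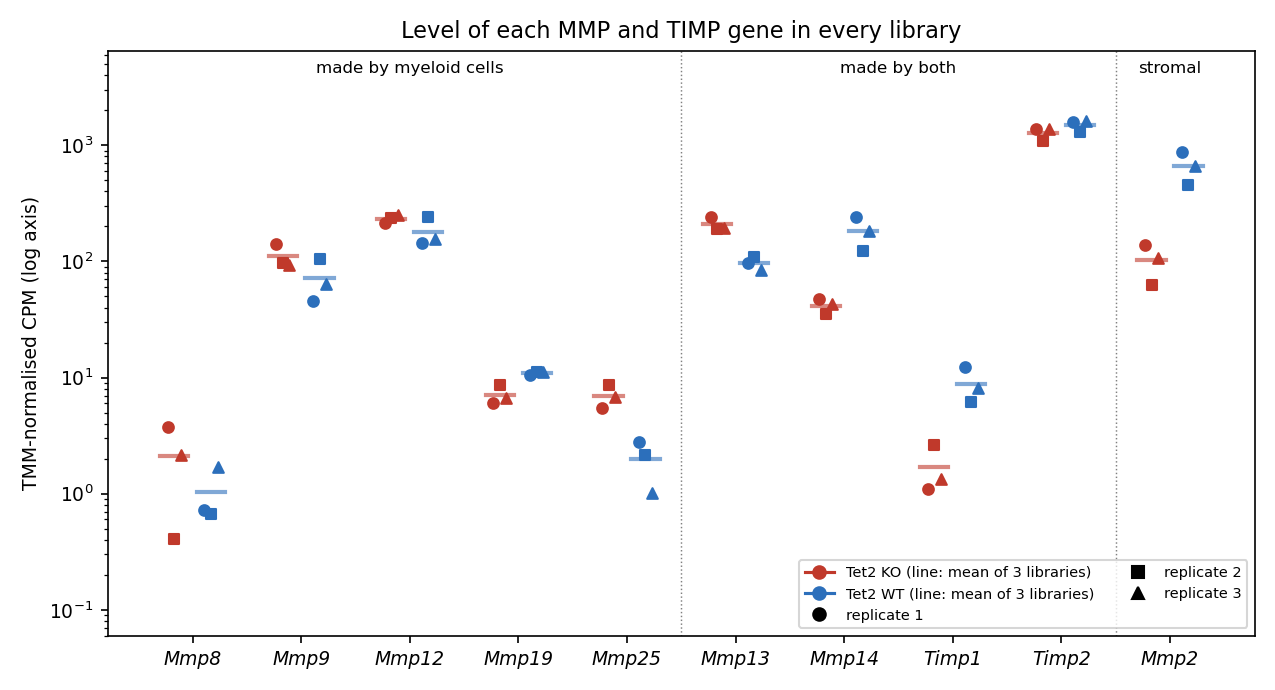
TMM-normalised CPM (log axis) of each gene in every library, Tet2 KO on the left and Tet2 WT on the right of each gene, with the mean of 3 libraries as a line. Mmp13 and Mmp25 lay higher in each Tet2 KO library than in any Tet2 WT library, and Mmp2, Mmp14, Mmp19 and Timp1 lower.

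Of the 10 genes, 5 differed between the genotypes at an adjusted p under 0.05 in edgeR's quasi-likelihood test, whereas 16.2% of all 16386 tested genes did. Mmp13 and Mmp25 were higher in Tet2 KO, as were 6.11% of all genes, and Mmp2, Mmp14 and Timp1 were lower, as were 10.1% of all genes. All 10 passed the filter on low counts. The libraries of the genotypes did not overlap for 6 of the 10, compared with 34.5% of all tested genes. The median log2 fold change, Tet2 KO over Tet2 WT, was 0.62 for the 5 myeloid-made genes, -1.18 for the 4 made by both, and -2.69 for Mmp2; over the 10 it was 0.07 and over all tested genes 0.00. The stromal and shared genes that fell did so beside the fibroblast markers, all 18 of which were called lower with a median of -3.01, and the rises stood beside the pan-macrophage markers, 12 of 16 called higher with a median of 0.71. Of 10 markers of pericytes and smooth muscle, Pdgfrb and Abcc9 were called lower. The other 8 were not called, and each overlapped between the genotypes. The 10 summed to 57.8 ± 14.8 CPM in Tet2 KO, against 186 ± 43.6 CPM in Tet2 WT, without overlap. The largest part of the Tet2 WT sum was Pdgfrb, which averaged 13.2 CPM in Tet2 KO, against 99.7 CPM in Tet2 WT. Of 10 endothelial markers, Tek was called lower, and their sum overlapped between the genotypes. The part of these cell types in the differences was not tested. In bulk RNA, fewer cells of a type and less RNA per cell cannot be told apart.

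**Figure D2:**
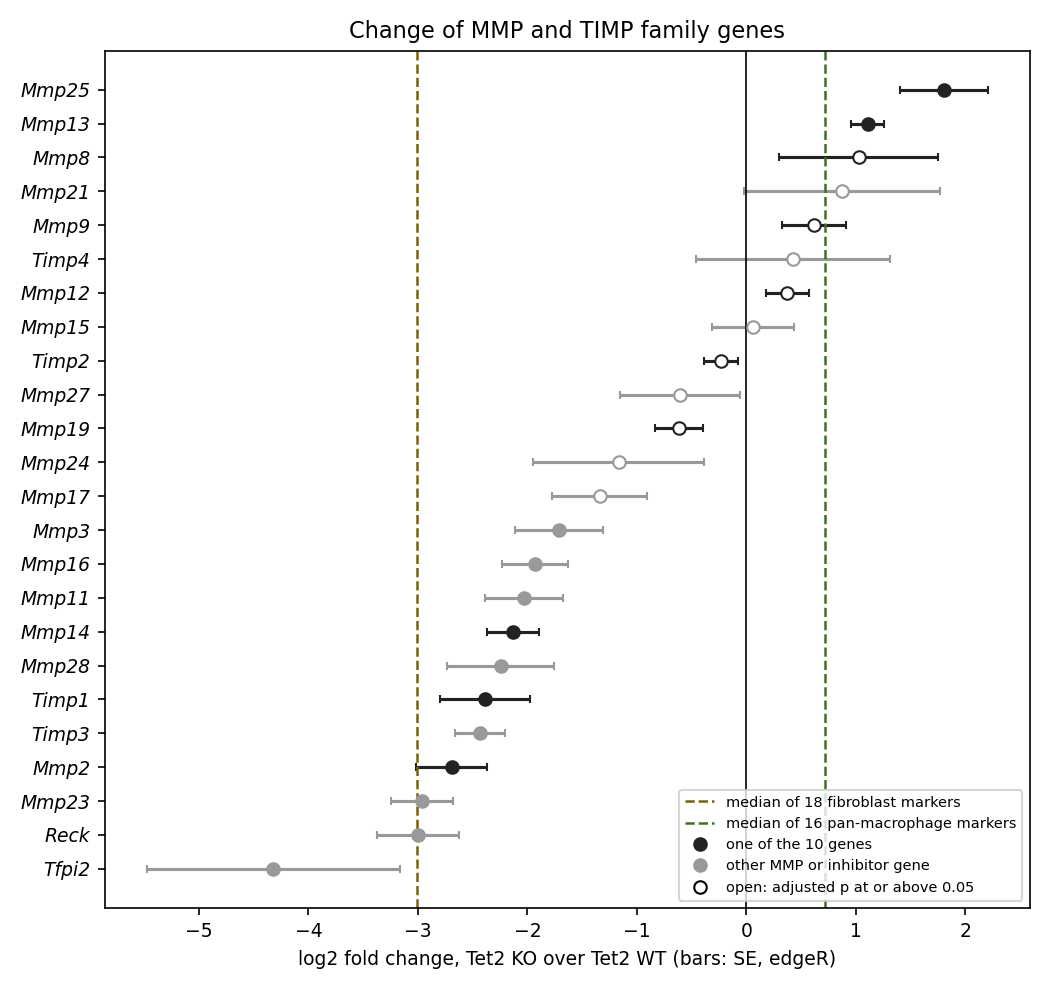
Log2 fold change, Tet2 KO over Tet2 WT, with its SE (edgeR), for the 10 genes (black) and the other MMP and inhibitor genes tested (grey); open circles did not pass the test. Dashed lines give the medians of the fibroblast markers (-3.01) and the pan-macrophage markers (0.71). Mmp25 and Mmp13 lie to the right of the second line, as do Mmp8 and Mmp21, which were not called. Of the 10 genes, Mmp2, Mmp14 and Timp1 lie between the fibroblast line and 0, as do Mmp19 and Timp2, which were not called.

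The collagenases cut fibrillar collagen. Mmp13 (ENSMUSG00000050578.10, GRCm38 chromosome 9, 7272514 to 7283331, plus strand), the main interstitial collagenase of the mouse, had 242, 189 and 193 CPM in Tet2 KO, against 96.8, 109 and 83.7 CPM in Tet2 WT. Every Tet2 KO library stood above every Tet2 WT library. Its log2 fold change was 1.11 ± 0.15 (SE), a 2.16-fold difference (edgeR adjusted p = 0.00103), resting on 4546 to 10055 estimated counts per library. The deposited files list 1 transcript for it, so its reads were not divided between isoforms. Set against the mean of the 16 pan-macrophage markers of the same library, on a log2(CPM + 0.5) scale, Mmp13 stood at -1.80, -2.14 and -2.16 in Tet2 KO and at -2.21, -2.53 and -2.67 in Tet2 WT. The groups still did not overlap on that scale, by a narrow margin, and the difference was 0.44 (exact permutation test over libraries, p = 0.1 two-sided; no smaller value is possible with 3 per genotype). When libraries were scaled to the pan-macrophage markers in the edgeR fit, Mmp13 was no longer called (log2 fold change 0.41 ± 0.17, adjusted p = 0.0736). Unlike the marker mean, this fit used the summed counts of the 16 markers. Lyz2 was by far the highest of them, at 21952 ± 3158 CPM in Tet2 KO, against 13659 ± 2241 CPM in Tet2 WT. That scaling moved the median of all genes by -0.69 and put 99.7% of called genes lower in Tet2 KO, against 62.3% with TMM scaling.

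Mmp8, the neutrophil collagenase, was the lowest of the 10 per transcript length, with 3.75, 0.408 and 2.16 CPM in Tet2 KO, against 0.725, 0.665 and 1.69 CPM in Tet2 WT. The Tet2 KO libraries spanned a wider range than the Tet2 WT libraries and enclosed them, and the log2 fold change was 1.02 ± 0.72 (edgeR adjusted p = 0.407). Its counts ran from 21 to 130 in Tet2 KO and from 37 to 92 in Tet2 WT. Leaving out 1 library moved the log2 fold change to between 0.33, when Tet2 KO replicate 1 was dropped, and 1.60, when replicate 3 of Tet2 WT was dropped, and Mmp8 was called in none of these fits.

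The gelatinases Mmp2 and Mmp9 cut denatured collagen and basement membrane collagen, and they moved differently. Mmp2 (ENSMUSG00000031740.8, GRCm38 chromosome 8, 92827291 to 92853420, plus strand) had 138, 62.9 and 107 CPM in Tet2 KO, against 871, 458 and 659 CPM in Tet2 WT. The highest Tet2 KO library was well below the lowest Tet2 WT library. On the log2 scale the fold change was -2.69 ± 0.33 (edgeR adjusted p = 0.000861), a level 6.46-fold higher in Tet2 WT. Relative to the fibroblast markers of the same library, Mmp2 stood at 1.27, 0.99 and 0.91 in Tet2 KO and at 0.79, 0.67 and 0.72 in Tet2 WT, a difference of 0.33 (exact permutation test, two-sided p = 0.1). Against the pan-macrophage markers it differed by -3.38. Which cells its RNA came from was not tested. The call held with each library left out (edgeR adjusted p at most 0.00322) and with pan-macrophage scaling.

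Mmp9 (ENSMUSG00000017737.2), which macrophages and neutrophils secrete, had 141, 96.4 and 93.7 CPM in Tet2 KO, against 46.0, 106 and 64.0 CPM in Tet2 WT. Tet2 WT replicate 2 lay within the Tet2 KO range, and the log2 fold change of 0.62 ± 0.29 did not pass the test (edgeR adjusted p = 0.21). Mmp12 (ENSMUSG00000049723.14), the macrophage elastase, had 213, 238.5 and 249 CPM in Tet2 KO, against 144, 242 and 155 CPM in Tet2 WT, a difference of 0.37 ± 0.19 on the log2 scale (edgeR adjusted p = 0.247). Here too Tet2 WT replicate 2 reached the Tet2 KO levels while the other 2 Tet2 WT libraries lay below. Without that library both genes were called higher, Mmp9 at 1.01 ± 0.23 and Mmp12 at 0.66 ± 0.14 (edgeR adjusted p = 0.0191 and 0.0164). Tet2 WT replicate 2 also had the highest mean of the pan-macrophage markers among Tet2 WT libraries, 9.30 on the log2(CPM + 0.5) scale, compared with 8.81 and 9.07 in replicates 1 and 3. Against that mean, Mmp9 differed between the genotypes by 0.01 and Mmp12 by -0.26, with overlapping libraries (exact permutation test, two-sided p = 1 and 0.2).

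**Figure D3:**
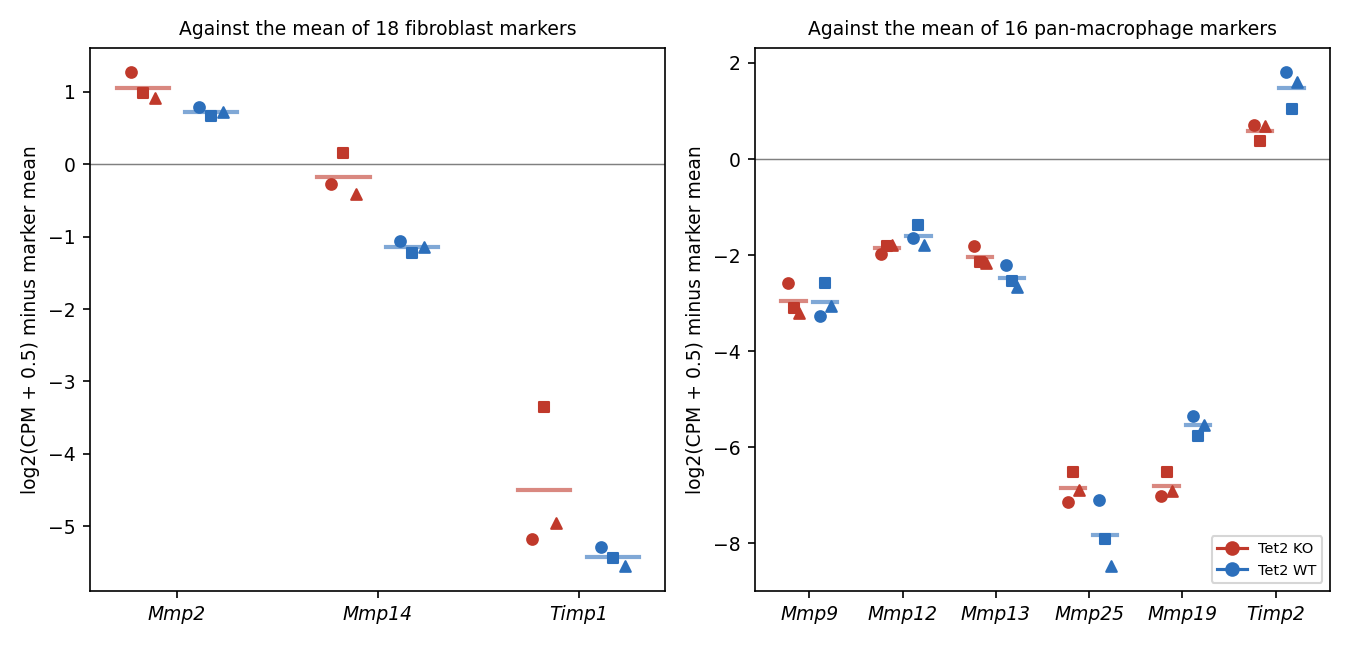
Level of selected genes in each library as log2(CPM + 0.5) minus the mean of the fibroblast markers (left) or of the pan-macrophage markers (right), Tet2 KO left of Tet2 WT for each gene, lines giving the mean of 3 libraries. Mmp14 was 0.97 higher in Tet2 KO against the fibroblast markers, with no overlap between genotypes; Mmp9 and Mmp12 overlapped against the pan-macrophage markers.

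The membrane-type proteases went in opposite directions. Mmp14 (ENSMUSG00000000957.11, GRCm38 chromosome 14, 54431612 to 54445364, plus strand), a transmembrane collagenase, had 47.0, 35.0 and 42.6 CPM in Tet2 KO, against 242, 123 and 181 CPM in Tet2 WT. The groups were far apart, at -2.13 ± 0.24 on the log2 scale (edgeR adjusted p = 0.000407). The call held with each library left out (edgeR adjusted p at most 0.00301). In Tet2 WT the ratio of Mmp14 to Mmp2 in TPM was nearly constant at 0.339, 0.335 and 0.335, whereas in Tet2 KO it was higher and more variable at 0.414, 0.654 and 0.468 (exact permutation test, two-sided p = 0.1). Relative to Mmp2, then, Mmp14 was higher in each Tet2 KO library. Of the TPM ratios computed between single genes, that of Mmp14 to Mmp2 was the only one without overlap. Those of Mmp13 to Mmp12 and to Mmp9, Timp1 to Mmp2, Mmp25 to Mmp8 and Mmp9 to Mmp12 overlapped. Relative to the mean of the fibroblast markers Mmp14 stood at -0.27, 0.15 and -0.41 in Tet2 KO and at -1.06, -1.22 and -1.14 in Tet2 WT, a difference of 0.97 (exact permutation test, two-sided p = 0.1). Against the pan-macrophage markers Mmp14 was lower in Tet2 KO, with a difference of -2.74 and no overlap.

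Mmp25 (ENSMUSG00000023903.8, GRCm38 chromosome 17, 23628311 to 23645277, minus strand) encodes a leukocyte protease held on the membrane by a lipid anchor. It had 5.47, 8.58 and 6.76 CPM in Tet2 KO, against 2.80, 2.14 and 1.01 CPM in Tet2 WT, from 190 to 441 counts per library in Tet2 KO and 55.1 to 147 in Tet2 WT. The lowest Tet2 KO library was above the highest Tet2 WT library, and the log2 fold change of 1.81 ± 0.40 was the largest rise of the 10 (edgeR adjusted p = 0.0134). The call held with each library left out (edgeR adjusted p at most 0.0413). It was lost with pan-macrophage scaling (1.10 ± 0.46, edgeR adjusted p = 0.0701), and against the mean of those markers its libraries overlapped, with a difference of 0.97. Of its summed TPM, 48.2 ± 12.6% in Tet2 KO and 37.4 ± 14.3% in Tet2 WT went to the protein-coding transcript ENSMUST00000024696.8; the remaining transcripts are annotated as targets of nonsense-mediated decay. The protein-coding transcript alone was at 0.950, 1.56 and 0.810 TPM in Tet2 KO and at 0.333, 0.216 and 0.211 TPM in Tet2 WT, again without overlap. A pair of processed pseudogenes overlaps Mmp25 on the opposite strand.

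Since Mmp8, Mmp9 and Mmp25 are also made by neutrophils, the neutrophil markers bear on their values. Of 14 such markers, 5 passed the filter on low counts and 1, the granulocyte growth factor receptor Csf3r, which macrophages also express, was higher in Tet2 KO (64.8 ± 5.14 CPM in Tet2 KO, against 39.4 ± 7.34 CPM in Tet2 WT; log2 fold change 0.72 ± 0.16, edgeR adjusted p = 0.0124). The other 4 that were tested did not pass: the chemokine receptor Cxcr2 averaged 2.03 ± 0.361 CPM in Tet2 KO, against 2.14 ± 0.249 CPM in Tet2 WT, and Padi4 averaged 1.99 ± 1.29 CPM in Tet2 KO, against 2.61 ± 1.80 CPM in Tet2 WT, while Mpo and Lcn2 averaged at most 0.338 CPM in either genotype. Cxcr2 and Padi4 thus stood at levels near those of Mmp8. The remaining 9, among them S100a8, S100a9 and Ly6g, averaged at most 0.154 CPM in either genotype, and Elane had no counts. The 14 markers together summed to between 60.9 and 71.7 CPM in Tet2 KO, against between 43.1 and 54.8 CPM in Tet2 WT, most of it from Csf3r. The part of neutrophils in the values of Mmp8, Mmp9 and Mmp25 was not tested.

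Mmp19 (ENSMUSG00000025355.7), a secreted protease first described as an autoantigen in arthritis, had 6.05, 8.62 and 6.72 CPM in Tet2 KO, against 10.6, 11.1 and 11.1 CPM in Tet2 WT. The groups did not overlap, and the log2 fold change of -0.62 ± 0.22 did not pass the test (edgeR adjusted p = 0.087; DESeq2 adjusted p = 0.0407). The summed TPM of the gene was 6.53 ± 1.92 in Tet2 KO, against 6.81 ± 0.527 in Tet2 WT, with overlap. With length-scaled TPM counts the log2 fold change was 0.09 ± 0.26. The 9-exon protein-coding transcript ENSMUST00000026411.7 was at 0.861, 2.12 and 1.65 TPM in Tet2 KO, against 2.89, 3.87 and 3.21 TPM in Tet2 WT. A short retained-intron transcript of 349 bases, ENSMUST00000218021.1, was at 2.73, 5.26 and 2.07 TPM in Tet2 KO, against 2.05, 1.34 and 0.580 TPM in Tet2 WT, and it took 49.4 ± 10.1% of the gene's TPM in Tet2 KO and 19.1 ± 9.60% in Tet2 WT. These levels rest on few reads: 13.3, 40.9 and 15.6 estimated counts in Tet2 KO, against 13.5, 10.04 and 4.01 in Tet2 WT, where the counts overlap. It shares 269 of its bases with the long transcript, so kallisto divided reads between them by a model. The remaining protein-coding transcript, ENSMUST00000219404.1, was at 2.17, 1.34 and 1.40 TPM in Tet2 KO, against 2.46, 1.203 and 2.82 TPM in Tet2 WT, with overlap. The genes Gm47093 and Tmem198b overlap Mmp19 on the opposite strand, and the strandedness of the libraries is not given.

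The inhibitors differed from each other. Timp1 (ENSMUSG00000001131.11, GRCm38 chromosome X, 20870166 to 20874735, plus strand), an inducible secreted inhibitor, had 1.09, 2.63 and 1.34 CPM in Tet2 KO, against 12.4, 6.15 and 8.07 CPM in Tet2 WT. Each Tet2 KO library was below each Tet2 WT library, at -2.39 ± 0.41 on the log2 scale (edgeR adjusted p = 0.00411) on 38 to 135 counts per library in Tet2 KO and 342 to 651 in Tet2 WT. The call held with each library left out (edgeR adjusted p at most 0.0269). The synapsin gene Syn1 overlaps Timp1 on the opposite strand. Relative to the fibroblast markers Timp1 stood at -5.17, -3.35 and -4.96 in Tet2 KO and at -5.29, -5.44 and -5.55 in Tet2 WT. The difference was 0.93 (exact permutation test, two-sided p = 0.1), and Tet2 KO replicate 2 stood apart from the other Tet2 KO libraries. That scale adds 0.5 to each CPM, which is not small beside the Timp1 levels in Tet2 KO, so the gap depends in part on it. Against the pan-macrophage markers Timp1 was lower in Tet2 KO, with a difference of -2.77 and no overlap. The TPM ratio of Timp1 to Mmp2 was 0.0341, 0.172 and 0.0529 in Tet2 KO, against 0.0610, 0.0553 and 0.0506 in Tet2 WT. This ratio overlapped between the genotypes (exact permutation test, two-sided p = 0.9).

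Timp2 (ENSMUSG00000017466.9, GRCm38 chromosome 11, 118301069 to 118355740, minus strand) had 1373, 1078 and 1379.85 CPM in Tet2 KO, against 1569, 1307 and 1622 CPM in Tet2 WT. The groups overlapped, and the log2 fold change of -0.23 ± 0.16 did not pass the test (edgeR adjusted p = 0.395). With pan-macrophage scaling it was called lower (-0.96 ± 0.18, edgeR adjusted p = 0.00181). Cep295nl overlaps Timp2 on the same strand. The transcripts of Timp2 moved apart: the long protein-coding transcript ENSMUST00000017610.9, of 3709 bases, was at 452, 341 and 462 TPM in Tet2 KO, against 599, 477 and 647 TPM in Tet2 WT. The short protein-coding transcript ENSMUST00000155707.2, of 718 bases, was at 291, 214 and 248 TPM in Tet2 KO, against 116, 194 and 160 TPM in Tet2 WT. Neither overlapped between the genotypes. The short transcript thus made up 39.2%, 38.5% and 35.0% of the gene's TPM in Tet2 KO and 16.2%, 28.9% and 19.8% in Tet2 WT. A share without overlap was found for 14.5% of 35283 transcripts, those of genes at 1 TPM or more in every library with at least 2 expressed transcripts. The short form shares 531 of its 718 bases with the long one, so this too rests on kallisto's division of reads, and its effective length was between 530 and 539 bases in Tet2 KO and between 519 and 538 in Tet2 WT.

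**Figure D4:**
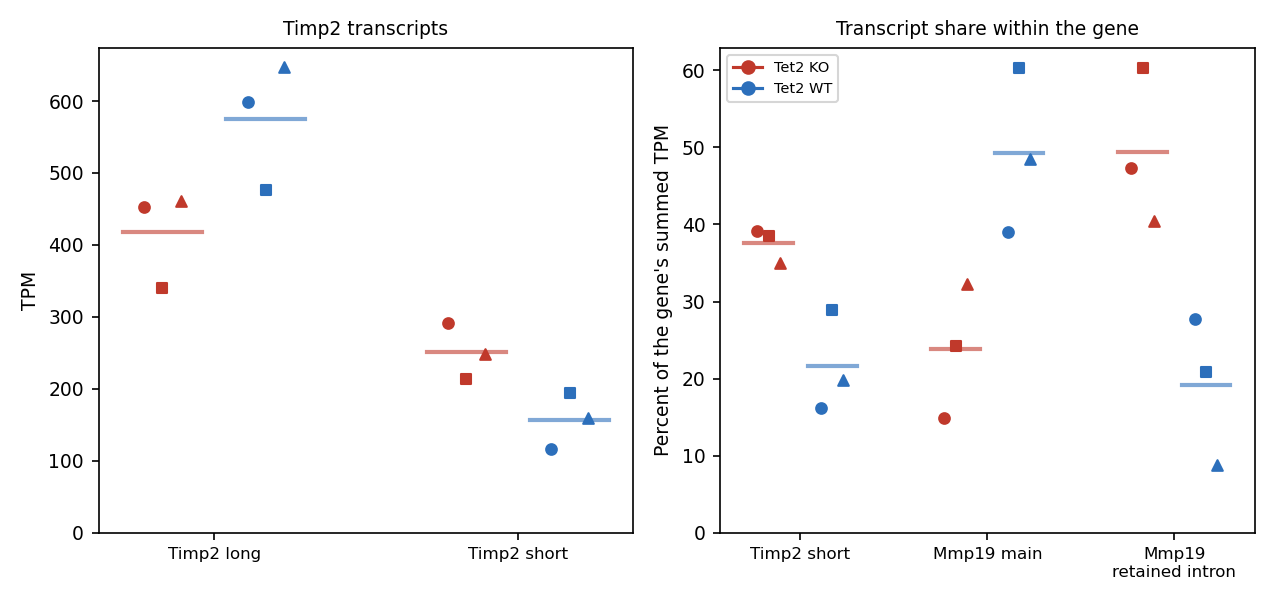
TPM of both Timp2 transcripts (left) and the percent of the gene's summed TPM held by the short Timp2 transcript and by 2 Mmp19 transcripts (right), for each library, Tet2 KO left of Tet2 WT, lines giving the mean of 3 libraries. The short Timp2 transcript held 35.0% to 39.2% in Tet2 KO and 16.2% to 28.9% in Tet2 WT, and the Mmp19 retained-intron transcript 40.5% to 60.3% in Tet2 KO and 8.78% to 27.7% in Tet2 WT.

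Summed over the 8 proteases, the level was 416 ± 47.4 TPM in Tet2 KO and 679 ± 79.6 TPM in Tet2 WT, without overlap between the genotypes. Mmp2 made up 13.3%, 7.53% and 11.4% of that sum in Tet2 KO and 56.2%, 37.3% and 50.3% in Tet2 WT. Mmp13 held 25.2 ± 2.04% of the protease sum in Tet2 KO and 8.09 ± 1.60% in Tet2 WT. Mmp2 and Mmp14 were the proteases called lower in these data, so leaving them out raises Tet2 KO relative to Tet2 WT by construction. The other 6 proteases, which include Mmp13, summed to 348 ± 26.9 TPM in Tet2 KO and 238 ± 57.8 TPM in Tet2 WT. These sums did not overlap, but they give no separate support. The 2 inhibitors summed to 672 ± 99.4 TPM in Tet2 KO and 749 ± 71.2 TPM in Tet2 WT, with overlap, and Timp2 made up between 99.2% and 99.7% of that sum in Tet2 KO and between 96.5% and 98.2% in Tet2 WT. With all 8 proteases counted, the ratio of protease to inhibitor TPM was 0.612, 0.650 and 0.600 in Tet2 KO, against 1.02, 0.878 and 0.824 in Tet2 WT. These are transcript levels, and no p is given for sums over chosen genes.

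Mmp13, Mmp12 and Mmp8 lie in a cluster of 10 MMP genes on chromosome 9 that spans 427 kb (GRCm38, 7272514 to 7699585). Of the 5 cluster genes tested, 1 was called higher and 1 lower, compared with 6.11% and 10.1% of all tested genes. Mmp3 (stromelysin), 2 genes beyond Mmp12, was lower in Tet2 KO, at 21.7 ± 12.7 CPM in Tet2 KO, against 71.0 ± 18.5 CPM in Tet2 WT (log2 fold change -1.71 ± 0.40, edgeR adjusted p = 0.0225), while Mmp13 was higher. Mmp27 did not pass the test, at -0.60 ± 0.55 (edgeR adjusted p = 0.534). The other 5 genes, Mmp1a, Mmp1b, Mmp7, Mmp10 and Mmp20, did not pass the filter on low counts and averaged at most 0.0572 CPM in either genotype.

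Many MMP promoters are known to be switched on by the transcription factor AP-1. The sequences before the start sites of 4 called genes (Mmp13, Mmp25, Mmp14 and Timp1) are therefore shown, to let their letters be compared, with those of Mmp12, which did not pass the test and has a pair of starts. They come from RefSeq (GRCm38.p6), which had entries for 7 of the 10 genes with 8 start sites. Each line gives the 150 bases before the start, 5′ to 3′ on the strand of the gene, with an AP-1 motif (TGANTCA, which reads the same on both strands) in capitals.
Mmp13, chr9:7272364-7272513, plus strand: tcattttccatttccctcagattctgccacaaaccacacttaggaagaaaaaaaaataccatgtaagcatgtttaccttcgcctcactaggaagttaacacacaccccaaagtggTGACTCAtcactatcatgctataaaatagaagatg
Mmp12, upstream start, chr9:7344247-7344396, plus strand: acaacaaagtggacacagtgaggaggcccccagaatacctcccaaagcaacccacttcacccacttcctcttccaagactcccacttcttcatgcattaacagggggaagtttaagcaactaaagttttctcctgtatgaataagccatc
Mmp12, downstream start, chr9:7347224-7347373, plus strand: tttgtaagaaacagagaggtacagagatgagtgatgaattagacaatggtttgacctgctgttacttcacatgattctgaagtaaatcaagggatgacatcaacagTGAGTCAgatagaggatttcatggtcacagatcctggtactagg
Mmp25, chr17:23645270-23645419, minus strand: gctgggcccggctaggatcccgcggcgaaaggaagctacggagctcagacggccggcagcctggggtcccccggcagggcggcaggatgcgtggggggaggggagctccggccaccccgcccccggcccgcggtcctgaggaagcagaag
Mmp14, chr14:54431448-54431597, plus strand: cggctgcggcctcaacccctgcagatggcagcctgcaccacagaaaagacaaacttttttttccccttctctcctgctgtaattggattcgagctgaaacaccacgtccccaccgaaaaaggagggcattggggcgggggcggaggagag
Timp1, chrX:20870016-20870165, plus strand: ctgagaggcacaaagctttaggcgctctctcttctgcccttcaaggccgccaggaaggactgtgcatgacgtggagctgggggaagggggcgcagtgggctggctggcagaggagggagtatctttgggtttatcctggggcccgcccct

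The AP-1 letters stood within 250 bases before 2 of the 8 start sites, 35 bases before the start of Mmp13 and 44 bases before the downstream start of Mmp12, and before 6.75% of all 32851 RefSeq start sites. The letters AGGAAG on either strand, a motif of ETS factors, stood before 6 of the 8 and before 29.5% of all, and TATAAA on either strand before 1, that of Mmp13, and before 12.4% of all; none of these overlapped the AP-1 letters. A match is a description of letters in this window only. Transcripts of Mmp12 from the upstream start summed to 71.0, 49.5 and 84.9 TPM in Tet2 KO, against 26.6, 48.9 and 47.8 TPM in Tet2 WT, without overlap by a margin under 1 TPM. Those from the downstream start, with the AP-1 letters, summed to 104, 123 and 123 TPM in Tet2 KO, against 77.1, 135 and 86.3 TPM in Tet2 WT, with overlap. The downstream transcript ENSMUST00000127722.1 shares 1411 of its 2060 bases with the upstream transcript ENSMUST00000120655.7, so these sums rest on kallisto's division of reads. ENSMUST00000127722.1, annotated as a target of nonsense-mediated decay, averaged 52.5 TPM in Tet2 KO and 45.0 TPM in Tet2 WT. Like the retained-intron and processed downstream transcripts, it begins at 7347406, not at the start shown (7347374). With protein-coding transcripts alone the log2 fold change of Mmp12 was 0.79 ± 0.26 (edgeR adjusted p = 0.073).

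Beyond the 10, the other MMP genes fell or did not pass the test, whereas over all tested genes 10.1% were called lower and 6.11% higher. Of 15 listed, 10 were tested, of which 5 were called lower and 0 higher, with a median log2 fold change of -1.52. Besides Mmp3, these were Mmp23 at -2.96 ± 0.28, Mmp28 at -2.24 ± 0.49, Mmp11 at -2.03 ± 0.36 and Mmp16, a membrane-type protease, at -1.93 ± 0.30 (edgeR adjusted p = 0.000217, 0.0127, 0.00493 and 0.00237, in that order). Mmp23 averaged 6.51 ± 1.97 CPM in Tet2 KO, against 50.6 ± 14.4 CPM in Tet2 WT. Mmp17 (-1.34 ± 0.44), Mmp24 (-1.17 ± 0.78), Mmp21 (0.87 ± 0.89) and Mmp15 (0.06 ± 0.37) did not pass the edgeR test (adjusted p = 0.0665, 0.379, 0.59 and 0.941).

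Other MMP inhibitors were lower in Tet2 KO for 3 of 4 tested, compared with 10.1% of all tested genes. Timp3, the matrix-bound TIMP, averaged 69.8 ± 14.4 CPM in Tet2 KO, against 377 ± 97.2 CPM in Tet2 WT (log2 fold change -2.43 ± 0.23, edgeR adjusted p = 0.000197). Reck, a membrane-anchored inhibitor, averaged 5.01 ± 2.55 CPM in Tet2 KO, against 39.6 ± 11.2 CPM in Tet2 WT (-3.00 ± 0.37, edgeR adjusted p = 0.000929). Tfpi2 averaged 0.162 CPM in Tet2 KO, against 3.45 CPM in Tet2 WT (edgeR adjusted p = 0.0359). Timp4 did not pass the test, at 8.57 ± 6.76 CPM in Tet2 KO, against 6.40 ± 6.58 CPM in Tet2 WT (0.43 ± 0.89, edgeR adjusted p = 0.812).

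Of 11 tested genes that activate MMP zymogens or belong to the plasminogen system, 1 was called higher, 3 lower and 7 neither. Their median log2 fold change was -0.11, and over all tested genes 6.11% were called higher and 10.1% lower. Plaur, the urokinase receptor, was higher, at 44.0 ± 5.98 CPM in Tet2 KO, against 28.7 ± 4.66 CPM in Tet2 WT (log2 fold change 0.61 ± 0.17, edgeR adjusted p = 0.0323). The tissue plasminogen activator Plat (-2.39 ± 0.38), the protease inhibitor Serpine2 (-2.74 ± 0.37) and the proprotein convertase Pcsk5 (-2.21 ± 0.24) were lower (edgeR adjusted p = 0.00399, 0.00192 and 0.000316, in that order). Furin, the convertase that cleaves membrane-type MMP zymogens, had 70.3 ± 9.39 CPM in Tet2 KO, against 41.6 ± 14.8 CPM in Tet2 WT (0.76 ± 0.23) and did not pass the test (edgeR adjusted p = 0.0535).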

How the data were processed

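RNA-seq libraries of sorted cardiac macrophages, 3 per genotype, were read as deposited. The submitters' processing notes name Trim Galore 0.6.4, kallisto 0.44.0 and the GRCm38 build. Per the file headers, the authors deposited an estimated count and a TPM value for each transcript; the counts are not normalized, and TPM is scaled within each library. Of 118783 transcripts, 98.2% matched GENCODE M21 by identifier without version. Values were summed per gene, and estimated counts were rounded. After filterByExpr and TMM scaling, the robust quasi-likelihood test of edgeR 4.0.16 (R 4.3.3) compared the genotypes with no covariate. P-values were adjusted by Benjamini-Hochberg over the 16386 genes left, and a call is an adjusted p under 0.05. In counts simulated for this comparison, the share of false calls was above the nominal level and most changes of 2-fold or less were missed. Each SE is the fold change divided by the root of its F value. CPM is TMM-normalized, except in summed markers.

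Levels against markers are log2(CPM + 0.5) minus the markers' mean in the same library. The exact permutation tests, over 10 genes against 3 marker lists and over 6 TPM ratios, cannot go below p = 0.1, so none can pass after adjustment. The depth of 37349505 to 55771087 counts and 3 libraries per genotype set the precision. No libraries of a genotype agreed within sampling noise (chi-square per gene at least 68.7). Named genes were the 10, Tet2, every tested gene of the other MMP and inhibitor lists, and called genes of the further protease and matrix lists; Furin, the markers named, the genes named without a call, and those of these further lists given with levels were picked with their values known. The members, lists, motifs and the pan-macrophage scaling were chosen with earlier results of these data known. The alternatives were edgeR with RLE, upper-quartile and pan-macrophage scaling, no and stricter count filters, each library left out, a replicate block, DESeq2 1.42.0, limma 3.58.1 (voom, and log2(TPM + 1) or log2(TPM + 0.1)), length-scaled TPM counts and protein-coding transcripts alone.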

Additional observations from a re-analysis of the deposited data

How the results depend on the processing

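Mmp2, Mmp14 and Timp1 were called lower under each of the 19 alternatives. Mmp13 lost its call with pan-macrophage scaling, and Mmp25 lost it there and with limma on log2(TPM + 1) without a filter (adjusted p = 0.0596). Members called higher numbered 2, but 0 with pan-macrophage scaling, 1 with unfiltered limma on TPM and 2 to 4 with a library left out (4 without Tet2 WT replicate 2); those called lower numbered 3, but 5 with pan-macrophage scaling (adding Mmp19, adjusted p = 0.00658, and Timp2), 4 with DESeq2 (adding Mmp19) and 3 to 4 with a library left out (adding Mmp19 without Tet2 KO replicate 2, adjusted p = 0.0437). With pan-macrophage scaling the log2 fold changes of Mmp12 and Mmp9 turned to -0.28 and -0.036, and with length-scaled TPM counts those of Mmp19 and Timp2 turned to 0.093 and 0.017; none of these 4 values passed the test. Over all genes 2653 were called, against 6763 with pan-macrophage scaling, 1396 with unfiltered limma on TPM and 1382 to 3141 with a library left out (1382 without Tet2 WT replicate 1 and 1750 without Tet2 KO replicate 3). Of called genes, 81.0% and 80.9% were lower with limma on filtered TPM at a pseudocount of 1 and of 0.1, and 92.3% without a filter, compared with 62.3% in the reported fit. The log2 difference of the protease sum ranged from -0.79 to -0.61 with a library left out. The causes were not tested.

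The replicate numbers do not pair the samples by any label. Same-numbered libraries had correlations of 0.06, 0.13 and 0.04 of their deviations from the group means, and each library correlated best with its own number, a hint from the data. With the number as a replicate block, 2347 genes were called, with the same 2 members higher and 3 lower.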

Other observations

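The ADAM and ADAMTS genes belong to related protease families. Of 11 ADAM genes tested, 1 was called higher, 0 lower and 10 neither, and the median log2 fold change was -0.11. The higher one, the leukocyte gene Adam8, averaged 25.02 ± 2.96 CPM in Tet2 KO, against 10.1 ± 4.62 CPM in Tet2 WT (log2 fold change 1.31 ± 0.29, edgeR adjusted p = 0.0141). Of 15 ADAMTS genes tested, which encode secreted proteases of matrix proteoglycans and procollagens, 8 were called lower and 0 higher, with a median of -2.14. Over all tested genes 6.11% were called higher and 10.1% lower, and a difference between both families was not tested. Adamts2, the procollagen N-proteinase, averaged 11.1 ± 2.79 CPM in Tet2 KO, against 94.3 ± 19.8 CPM in Tet2 WT (-3.09 ± 0.23), and the aggrecanase Adamts5 averaged 9.81 ± 5.03 CPM in Tet2 KO, against 97.9 ± 26.9 CPM in Tet2 WT (-3.31 ± 0.37; edgeR adjusted p = 8.66e-05 and 0.000592, in that order). Adamts1, Adamts4, Adamts8, Adamts10, Adamts12 and Adamts15 were the others. Adamts8 had no counts in Tet2 KO and averaged 0.626 CPM in Tet2 WT.

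Matrix proteins that MMPs cut were lower for 10 of 11 tested, compared with 10.1% of all tested genes, with a median of -3.20. Of the listed collagens, 4 (Col1a1, Col1a2, Col3a1 and Col5a1) are also fibroblast markers here. The other called genes were Col4a1, Col4a2, Lama2, Lamb1, Vcan and Eln, and over the 10 the log2 fold changes lay between -3.45 (Lama2) and -1.93 (Col4a2). Elastin (Eln), a substrate of MMP12, averaged 11.8 ± 2.95 CPM in Tet2 KO, against 107 ± 27.9 CPM in Tet2 WT (-3.18 ± 0.25, edgeR adjusted p = 9.91e-05). The exception was Fn1, fibronectin, which macrophages also make, at 72.3 ± 42.5 CPM in Tet2 KO, against 69.1 ± 11.8 CPM in Tet2 WT (0.07 ± 0.36, edgeR adjusted p = 0.931).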
